A study of Mus musculus with 7 samples.

Results

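The protein genes of the cytosolic ribosome were followed across 7 microarrays of cDC1 from spleen, the type 1 conventional dendritic cells that present engulfed antigen to CD8 T cells. Members were taken by gene symbol: every symbol that begins with Rpl or Rps and a digit, plus Rplp0, Rplp1 and Rplp2, without the Rps6k kinases and without symbols marked as pseudogenes. Of 74 symbols that matched, 6 kinases and 1 pseudogene symbol were left out, and 67 of the 19505 named genes remained, each with a single probe set. They comprised 41 symbols of the large subunit and 26 of the small subunit. Rplp2 was not analysed here.

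The cytosolic ribosome joins a large and a small subunit. The small subunit reads the mRNA, the large subunit forms the peptide bond, and nearly every protein of either subunit is encoded by its own gene. Mammalian ribosomal protein mRNAs begin with a pyrimidine tract, the 5′ terminal oligopyrimidine (TOP) motif, through which mTORC1 and LARP1 control their translation. Their amounts are usually kept in balance, and dendritic cells are known to adjust protein synthesis when they are activated.

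The arrays labelled KO (n = 4) held cDC1 from mice with floxed OPA1 alleles and Cre recombinase under CD11c control. The others, labelled WT (n = 3), held cDC1 from wild-type mice. All mice were of the C57BL/6 strain and carried B16-OVA tumors, a melanoma line that makes ovalbumin. OPA1 is a dynamin-like GTPase needed for fusion of inner mitochondrial membranes. CD11c-driven Cre acts in other CD11c-expressing cells besides cDC1. The labels give no age, and they do not state whether each array had its own mouse. The p-values therefore reflect array-to-array spread alone, and that spread may be technical. Values are deposited log2 signals, all differences are KO minus WT on that scale unless another pair is named, and an adjusted p under 0.05 in limma was the threshold for a call.

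The array labels were checked first. Opa1 read 7.70, 7.10, 6.85 and 8.24 on KO 1 to 4, against 8.14, 8.80 and 9.15 on WT 1 to 3, so KO 4 lay above WT 1. The difference of -1.22 was not called (limma, adjusted p = 0.223). Whether its probes lie in the deleted part of the gene was not analysed here.

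The arrays labelled WT 1 and WT 2 stood apart from the other 5 in cDC1 markers, and lay furthest from the KO arrays in melanocyte genes. Xcr1, a chemokine receptor that defines cDC1, read 12.70, 12.79, 12.71 and 12.78 on KO 1 to 4, against 12.12, 7.97 and 12.76 on WT 1 to 3. All 13 of 13 cDC1 markers had a higher KO mean, and relative to the KO mean the 13 together lay at -0.02 to 0.03 on the KO arrays, against -0.96, -2.50 and -0.04 on WT 1 to 3. All 12 of 12 melanocyte lineage genes had a lower KO mean. Relative to the mean of the KO arrays, that list lay at 0.37, 0.13, -0.06 and -0.44 on KO 1 to 4, against 3.90, 4.25 and 1.41 on WT 1 to 3. WT 3 was thus also above the KO arrays in this list, and above every KO array in 11 of the 12 genes. The 6 cDC2 markers lay at -0.41 to 0.20 on the KO arrays, against -0.10, 1.62 and 0.48 on WT 1 to 3, and the 6 measured of 7 monocyte and macrophage markers at -0.24 to 0.21, against -0.02, 1.22 and 0.39. The remaining lists were lower on WT 1 and WT 2 than on every KO array, apart from T and NK cell markers, where KO 2 was lower than WT 2. The B cell list (5 of 6 measured) lay at -0.25 to 0.20 on the KO arrays, against -0.51, -0.51 and 0.21 on WT 1 to 3. The T and NK cell list (7 of 8) lay at -0.74 to 0.49 on the KO arrays, against -0.93, -0.66 and 0.53 on WT 1 to 3. In these lists of lymphoid cells WT 3 was the highest array. Plasmacytoid dendritic cell markers (5 of 5) lay at -0.12 to 0.12 on the KO arrays, against -0.61, -0.52 and 0.45 on WT 1 to 3. For neutrophil markers (5 of 6) the KO arrays lay at -0.38 to 0.32, against -0.60, -0.66 and 0.04 on WT 1 to 3. For erythroid markers (2 of 5) the KO arrays lay at -0.14 to 0.09, against -0.46, -0.55 and -0.04 on WT 1 to 3. The KO mean was higher in 4 and lower in 1 of the B cell genes, and higher in all measured neutrophil and erythroid genes. Among T and NK cell genes it was higher in 4 and lower in 3, Cd3d, Cd3e and Cd3g. Among plasmacytoid dendritic cell genes it was higher in 3 and lower in 2, with Bst2 at -0.83. It was higher in 2 and lower in 4 cDC2 genes, and higher in 1 and lower in 5 monocyte and macrophage genes. In RNA from a whole sorted sample, fewer cells of a type and less RNA per cell cannot be told apart. The calls and medians of the members, and the medians of the other gene lists, are therefore also given without WT 1 and WT 2 and without WT 3.

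The first bases of the mRNAs are shown because the TOP motif is the feature that ribosomal protein genes are known to share and the rule for members did not use it. RefSeq start sites (GRCm38.p6, the build of the sequence table and not necessarily that of the arrays) were found for 54 of the 67 members, with 65 starts in all. Each line below gives 15 bases before and 15 bases from the start on, 5′ to 3′ on the strand of the gene. Capitals mark an unbroken run of at least 5 pyrimidines (C or T) that covers the start. The first 4 genes begin with C and 4 more pyrimidines.
Rpl14: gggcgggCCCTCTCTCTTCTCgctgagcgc
Rpl28: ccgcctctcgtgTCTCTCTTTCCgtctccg
Rpl35a: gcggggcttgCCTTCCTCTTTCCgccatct
Rps21: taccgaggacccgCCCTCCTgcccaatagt
Rpl11: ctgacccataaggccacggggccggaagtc
Rpl23: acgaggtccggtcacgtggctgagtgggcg
Rps28: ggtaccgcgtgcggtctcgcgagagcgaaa
Rps27l: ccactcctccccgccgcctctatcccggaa

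These windows lie at chr9:120571502-120571531 (plus strand) for Rpl14, chr7:4792950-4792979 (plus) for Rpl28, chr16:33056467-33056496 (plus) for Rpl35a and chr2:180257364-180257393 (plus) for Rps21. The last 4, of members with some of the largest array differences, lie at chr4:136053379-136053408 (minus) for Rpl11, chr11:97782425-97782454 (minus) for Rpl23, chr17:33824548-33824577 (minus) for Rps28 and chr9:66946071-66946100 (plus) for Rps27l. Those 4 show no run of 5 pyrimidines over the listed start. RefSeq lists further starts for Rpl35a, Rps21 and Rps27l, which are not printed.

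A start with C followed by 4 pyrimidines was present at 13 of 65 member starts (20%), against 2.51% of all 32851 starts in the table. A run of 8 pyrimidines anywhere from 10 bases before to 20 bases after the start was present at 19 member starts (29.2%), against 11.2% of all starts, and some of these runs are the same bases as the C-led starts. The letters CCGGAAG, a core form of the site read by ETS family transcription factors, stood on either strand of the promoter (250 bases before the start and 50 after) at 21 member starts (32.3%), against 8.86% of all starts. Among the 19143 listed starts of genes measured on the arrays, these shares were 2.24%, 11.3% and 11.8%, in the same order. Rps21 carries CCGGAAG shortly before its start, as the 60 bases on the plus strand at chr2:180257319-180257378 show with the match in capitals.
Rps21 upstream: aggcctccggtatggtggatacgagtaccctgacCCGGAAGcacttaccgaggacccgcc

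These matches are descriptions of the annotated starts. The 13 genes with a C-led pyrimidine start had a median difference between KO and WT of 0.06, and the other 41 genes with a listed start had 0.07. The 20 genes with CCGGAAG had a median of 0.07, against 0.06 for the 34 without it. The 19 genes with a run of 8 pyrimidines had a median of 0.04, against 0.09 for the 35 without one. No difference between genes with and without these letters was tested.

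Ribosomal protein genes gave some of the brightest signals on every array. By the mean over 7 arrays, 31 of the 67 lay among the 100 brightest of all genes and 52 among the 500 brightest, and 53 had a mean of at least 12 (32 of the large and 21 of the small subunit). Signals of different probe sets are not comparable as amounts of mRNA, so this gives their place in the range of the array only. The brightest were Rpl28 at 13.66, Rps29 at 13.59 and Rpl41 at 13.54. The dimmest were Rpl39l at 6.50, Rpl3l at 8.09 and Rps23rg1 at 8.37, against medians of the negative control probe sets of 6.49 to 6.88 on KO arrays and 6.19 to 6.71 on WT arrays. Rpl39l, a paralog of Rpl39 known from testis, thus lay at background.

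No ribosomal protein gene was called in KO against WT, in a comparison where no gene at all was called. In limma 0 of 67 members passed in either direction, beside 0% of the 19505 genes in each direction, and the smallest adjusted p was 0.228 among the members and 0.223 among all genes. At an unadjusted p under 0.05, 2 members were higher in KO, Rpl11 and Rpl37rt, beside 8.98% of all genes. In the other direction 1 member was lower in KO, Rps27l, beside 10.6% of all genes. Both shares of the members, 2.99% and 1.49%, were below those of all genes.

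The differences were small. They ran from -0.29 (Rps27l) to 0.33 (Rpl11) around a median of 0.07, against a median of 0.06 over all genes and 0.04 over the 487 other genes with a mean of at least 12. The KO mean was higher for 48 members and lower for 19. Over all 19505 genes it was higher for 11693 and lower for 7812, and over the 487 other bright genes for 278 and 209. Of the 67, 39 differed by at most 0.1 and 54 by at most 0.2, and the largest difference, that of Rpl11, was 1.26-fold. None reached a size of 0.5, beside 14.2% of all genes and 11.7% of the other bright genes. The median size of the difference was 0.084 for the members and 0.178 for all genes.

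**Figure D1:**
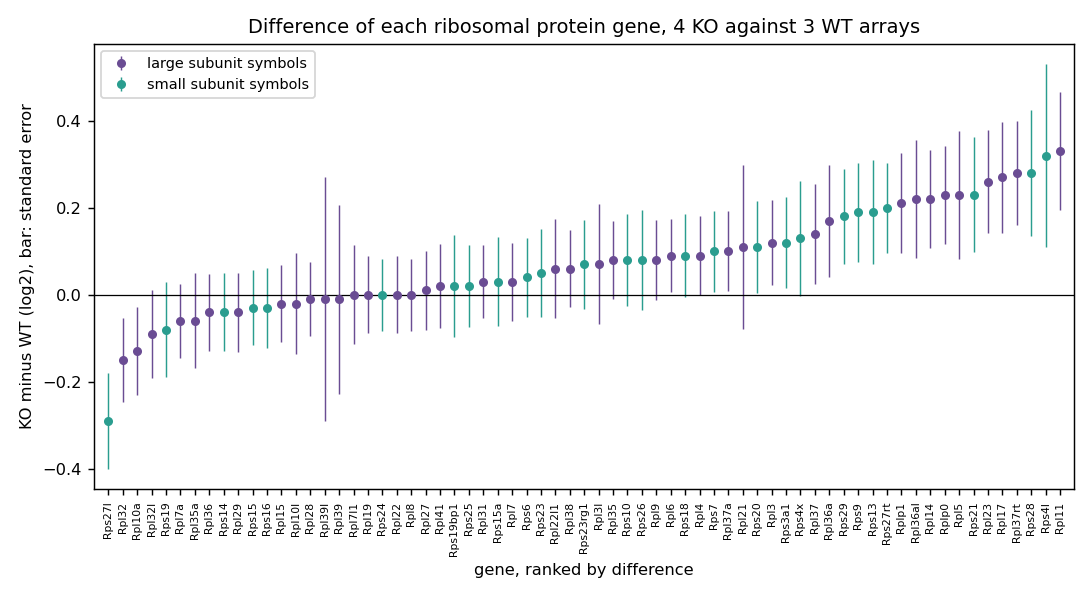
KO minus WT difference in log2 of each of the 67 ribosomal protein genes, ranked along the horizontal axis, with the limma standard error as a bar and colour for the subunit. The differences run from -0.29 for Rps27l to 0.33 for Rpl11, with most genes close to 0 (39 within 0.1).

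The spread between arrays of a group was also small. The median SD over the members was 0.065 among the 4 KO arrays, against 0.131 among the 3 WT arrays. For all genes the same medians were 0.142 and 0.197, and for the other bright genes 0.080 and 0.194. The widest KO spreads belonged to Rpl39l (SD 0.42), Rpl39 (0.39) and Rpl21 (0.24). Rpl39, a small protein at the peptide exit tunnel, read 9.48, 10.21, 10.04 and 9.44 on KO 1 to 4, against 9.56, 9.94 and 9.91 on WT 1 to 3. Its KO arrays fell in a higher and a lower pair, with all WT arrays between them.

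The 67 genes did not behave alike on the 3 WT arrays. The mean over the members, relative to the mean of the KO arrays, was -0.037, 0.043, 0.029 and -0.034 on KO 1 to 4, against -0.115, -0.137 and 0.031 on WT 1 to 3. WT 3 thus lay within the range of the KO arrays and WT 1 and WT 2 below it. WT 1 read below all 4 KO arrays in 38 members (56.7%, against 33.6% of all genes), WT 2 in 39 (58.2%, against 42.1%) and WT 3 in 3 (4.48%, against 24.2%). The other bright genes were closer to the members, at 47.8%, 50.7% and 8.62% on WT 1 to 3. Their mean relative to the KO arrays was -0.08, -0.16 and 0.04 on WT 1 to 3. Both WT 1 and WT 2 were below every KO array in 33 members (49.3%), against 25.4% of all genes and 40.7% of the other bright genes. Both were above every KO array in 6 members (8.96%), against 20.6% of all genes and 24.6% of the other bright genes.

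**Figure D2:**
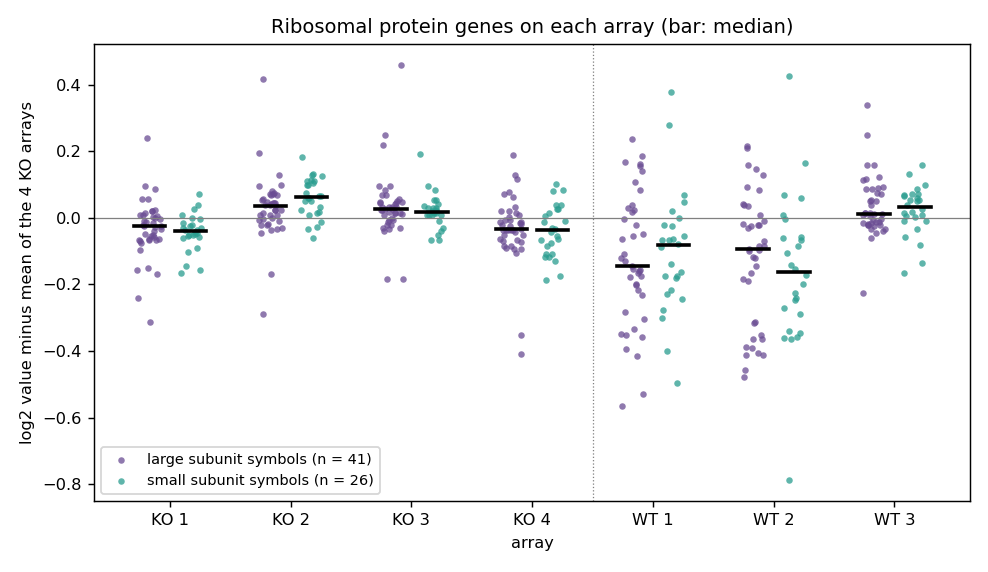
Each point is one ribosomal protein gene on one array, as its log2 value minus the mean of the 4 KO arrays, with large and small subunit symbols side by side and a bar at the median. Points on KO 1 to 4 and WT 3 lie close to 0, while on WT 1 and WT 2 they spread more widely and their medians lie below 0.

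The spread from gene to gene showed the same division. The SD over the 67 genes of the value relative to the KO mean was 0.079 to 0.093 on the KO arrays, against 0.192, 0.208 and 0.085 on WT 1 to 3. The mean of WT 1 and WT 2 lay at least 0.2 below the KO mean in 21 members (31.3%) and at least 0.2 above it in 1 member (1.49%). The same shares were 38.8% and 19.7% of the other bright genes, and 31.6% and 23.6% of all genes. WT 3 lay within 0.1 of the KO mean in 54 members (80.6%), against 75.4% of the other bright genes and 40.8% of all genes. Means of the melanocyte, cDC1, B cell, T and NK cell, plasmacytoid dendritic cell, neutrophil and erythroid marker lists move mostly with this division. Not every gene in these lists does. WT 3 also lay above the KO arrays in the melanocyte list, and KO 2 below WT 2 in the T and NK cell list. The part of these markers in the division of the WT arrays was not tested.

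Rpl5 and Rpl11, proteins of the 5S ribonucleoprotein, had a median difference of 0.28. With 5S rRNA they form a particle of the large subunit, and outside the ribosome they bind MDM2, the ubiquitin ligase of p53. Rpl11 read 12.33, 12.36, 12.37 and 12.24 on KO 1 to 4, against 11.76, 11.92 and 12.28 on WT 1 to 3. WT 3 fell within the KO range and the other 2 WT arrays below it, and the difference of 0.33 (standard error 0.135) was not called (limma, adjusted p = 0.243). Rpl5 read 13.19, 13.22, 13.32 and 13.22 on KO 1 to 4, against 12.89, 12.78 and 13.36 on WT 1 to 3. Its highest value of all was thus on a WT array.

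The acidic stalk, which recruits elongation factors to the large subunit, showed the same order of arrays. Rplp0, the base of the stalk, read 11.47, 11.59, 11.58 and 11.45 on KO 1 to 4, against 11.22, 11.17 and 11.50 on WT 1 to 3. Rplp1, one of the acidic proteins bound to that base, read 13.52, 13.49, 13.63 and 13.50 on KO 1 to 4, against 13.20, 13.22 and 13.55 on WT 1 to 3. The differences were 0.23 and 0.21. In both genes WT 3 lay inside the KO range and WT 1 and WT 2 below it, so that the groups overlapped.

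Other large subunit genes with a higher KO mean differed in the same way. Rpl23, a protein of the face that meets the small subunit, read 12.88, 12.85, 12.87 and 12.82 on KO 1 to 4, against 12.44, 12.49 and 12.84 on WT 1 to 3, a difference of 0.26. Rpl17, which lines the peptide exit tunnel, read 12.30, 12.29, 12.36 and 12.36 on KO 1 to 4, against 11.97, 11.85 and 12.34 on WT 1 to 3, a difference of 0.27. Rpl14, the first sequence above, read 13.35, 13.36, 13.26 and 13.20 on KO 1 to 4, against 13.01, 12.93 and 13.27 on WT 1 to 3, a difference of 0.22. In all 3 genes WT 3 lay among the KO arrays. The 6 measured proteins of the exit tunnel had a median difference of 0.05, with a higher KO mean in 4 of the 6. A list set up for the catalytic core held 3 measured genes, Rpl3, Rpl8 and Rpl10a, at a median of 0.00. Of these, Rpl10a belongs to the mobile L1 stalk and not to that core. Relative to the KO mean the list as a whole lay at 0.02, -0.01 and -0.01 on WT 1 to 3, but its genes differed in direction. The mean of WT 1 and WT 2 lay at -0.18 from the KO mean in Rpl3, at 0.00 in Rpl8 and at 0.20 in Rpl10a.

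Rpl6 was the single member in which every KO array lay above every WT array, beside 7.85% of all genes. It read 13.27, 13.25, 13.22 and 13.26 on KO 1 to 4, against 13.12, 13.18 and 13.19 on WT 1 to 3. The difference was only 0.09, with a standard error of 0.0841 in limma, which takes part of its spread from the other genes.

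Among small subunit genes, Rps28, which lies at the mRNA exit channel, read 12.68, 12.80, 12.78 and 12.52 on KO 1 to 4, against 12.20, 12.33 and 12.71 on WT 1 to 3, a difference of 0.28. Rps21 read 12.75, 12.89, 12.81 and 12.67 on KO 1 to 4, against 12.38, 12.44 and 12.83 on WT 1 to 3, a difference of 0.23. In both, WT 3 lay within the KO range. Of 4 measured proteins of the mRNA channel, 3 had a higher KO mean, with a median of 0.07. Rps6, the target of the S6 kinases, differed by 0.04.

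**Figure D3:**
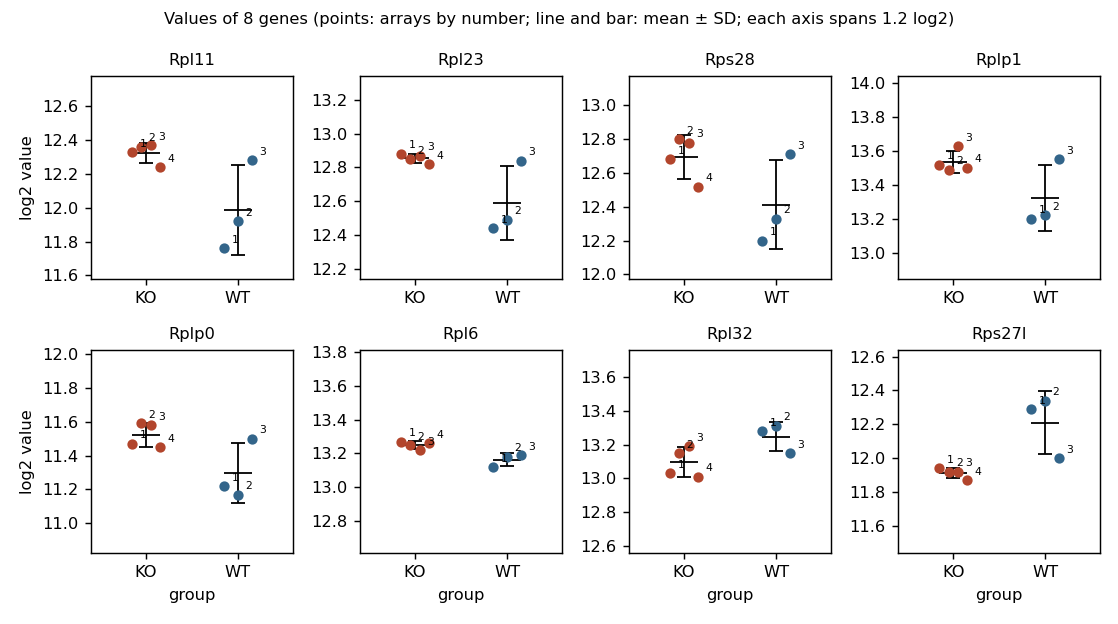
Log2 values of 8 genes in KO (left) and WT (right), with each array numbered, the mean as a line and the SD as a bar; each vertical axis spans the same 1.2 log2. In Rpl11, Rpl23, Rps28, Rplp1 and Rplp0 WT 3 sits with the KO arrays; Rpl6 and Rps27l are the 2 genes whose groups do not overlap.

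Rps27l, a paralog of Rps27 known in human cells as a p53 target, was the single member in which every KO array lay below every WT array, beside 5.92% of all genes. It read 11.94, 11.92, 11.92 and 11.87 on KO 1 to 4, against 12.29 and 12.34 on WT 1 and WT 2, with WT 3 between these and the KO arrays. The difference was -0.29 with a standard error of 0.11 (limma, adjusted p = 0.228). WT 3 lay 0.08 above the KO mean of 11.92, and the mean of WT 1 and WT 2 lay 0.40 above it.

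The other members with a lower KO mean differed less. Rpl32 read 13.03, 13.15, 13.19 and 13.01 on KO 1 to 4, against 13.28, 13.31 and 13.15 on WT 1 to 3, a difference of -0.15. Rpl10a, of the mobile L1 stalk beside the tRNA exit site, read 12.03, 12.15, 12.04 and 11.99 on KO 1 to 4, against 12.29, 12.21 and 12.03 on WT 1 to 3, a difference of -0.13. In both genes WT 3 lay among the KO arrays, and the other WT arrays were higher than all of these. The next 7 by unadjusted p, Rpl32l, Rps19, Rpl7a, Rpl35a, Rpl36, Rps14 and Rpl29, differed by -0.09 to -0.04, and none had groups that did not overlap. Rps19 is the gene most often mutated in human Diamond-Blackfan anemia.

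Paralogs of ribosomal proteins, which can take the place of the usual protein, had no common direction. Of 8 measured, 5 had a higher and 3 a lower KO mean, with a median of 0.07. Rps4l read 10.11, 10.22, 9.97 and 9.85 on KO 1 to 4, against 9.76, 9.25 and 10.17 on WT 1 to 3, a difference of 0.32. Rpl36al read 12.60, 12.61, 12.65 and 12.55 on KO 1 to 4, against 12.25, 12.19 and 12.69 on WT 1 to 3, a difference of 0.22. WT 3 was the highest WT array in both genes, and for Rpl36al the highest of all 7 arrays.

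Rps27rt, a retrotransposed copy of Rps27, differed by 0.20, and Rpl22l1, the paralog of Rpl22, by 0.06. Rpl3l, known from muscle, differed by 0.07, Rpl10l, known from testis, by -0.02, and Rpl39l by -0.01. Rpl37rt, a retrotransposed copy of Rpl37, read 12.70, 12.75, 12.72 and 12.60 on KO 1 to 4, against 12.30, 12.28 and 12.66 on WT 1 to 3, a difference of 0.28 (limma, adjusted p = 0.254). Such copies are close to their parent genes in sequence, so part of their signal may belong to the parent, and which gene each signal comes from is uncertain. Rpl7l1 and Rps19bp1, the matched symbols listed as not being ribosome components, differed by -0.00 and 0.02. Rps23rg1, which was on neither that list nor the list of paralogs, differed by 0.07.

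The balance of large and small subunit differed between the groups by less than the spread between arrays. The mean over large subunit members minus the mean over small subunit members was -0.069, -0.111, -0.067 and -0.074 on KO 1 to 4, against -0.101, -0.043 and -0.068 on WT 1 to 3. The group means were -0.080 ± 0.021 in KO (SD, n = 4) and -0.071 ± 0.029 in WT (SD, n = 3), a difference of -0.009 that was smaller than either SD. The level of this value carries no meaning, since it sets different probe sets against each other, and only its change between arrays was read. Without the paralogs and the 2 other matched symbols, over 35 large and 22 small subunit genes, it was 0.136, 0.109, 0.137 and 0.133 on KO 1 to 4, against 0.120, 0.168 and 0.128 on WT 1 to 3. That smaller set still held Rpl32l, Rpl37rt and Rps23rg1, which were in no list of paralogs.

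Both subunits lay lower on the same WT arrays. Relative to the KO mean, the large subunit lay at -0.124, -0.123 and 0.035 on WT 1 to 3 and the small subunit at -0.102, -0.160 and 0.024. The median difference between KO and WT was 0.06 for the large and 0.08 for the small subunit, and the KO mean was higher in 27 of 41 and 21 of 26 genes. For all genes the KO mean was higher in 11693 of 19505. The 2 arrays on which both subunits were lowest were WT 1 and WT 2.

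**Figure D4:**
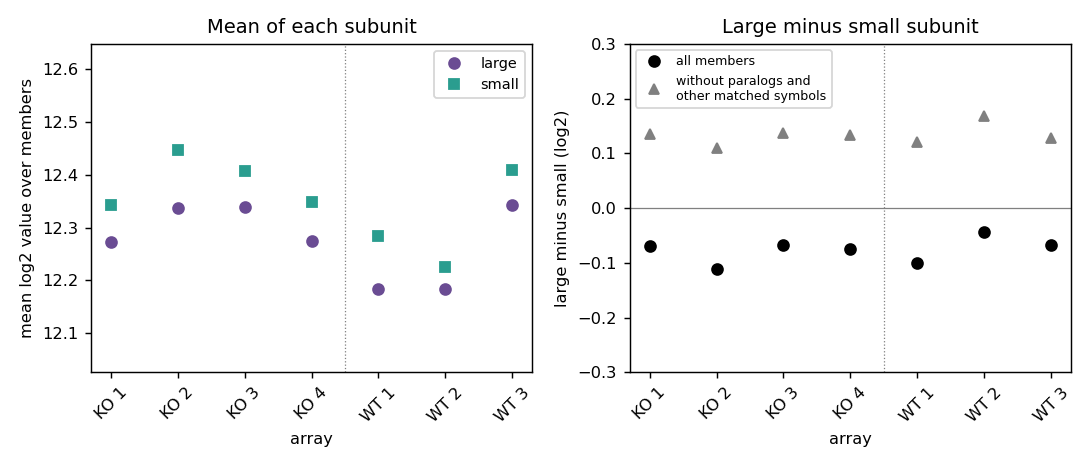
Left, the mean log2 value over the 41 large and the 26 small subunit symbols on each array; right, large minus small on each array for all members and for the genes left without paralogs and other matched symbols. Both subunits are lowest on WT 1 and WT 2, and the difference between them stays within -0.111 to -0.043 for all members. Rpl32l, Rpl37rt and Rps23rg1 remain in the set without paralogs.

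Among single WT arrays, only leaving out WT 3 changed which genes were called. Without WT 3, the comparison set the KO arrays against the WT arrays that stood apart in cell type markers. Then 9 members were called higher in KO (13.4% of the members, beside 11.4% of all genes) and 1 lower (1.49%, beside 13.8% of all genes) by limma. Those higher were Rps4l, Rpl11, Rps28, Rpl17, Rpl37rt, Rpl5, Rpl23, Rpl36al and Rps21, by 0.37 to 0.54, and the one lower was Rps27l, by -0.40. Rpl11 had the smallest adjusted p of these, 0.0126, at a difference of 0.48.

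Without WT 1 and WT 2, the 4 KO arrays stood against WT 3 alone, which was assumed to vary like the KO arrays. At an unadjusted p under 0.05 in limma, 0 of 67 members were then higher, beside 2.87% of all genes, and 0 were lower, beside 3.05% of all genes. The median difference of the members was -0.02. On WT 3 Rpl11 lay at -0.04 and Rplp0 at -0.02 from the KO mean, and Rplp1 at 0.02. The calls obtained without WT 3 rest on WT 1 and WT 2 by construction, since no other WT array was left. These 2 arrays stood apart in the marker lists, and the part of those markers in the calls was not tested. With 1 WT array, the comparison with WT 3 alone had little power to call genes.

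The other genes of the same system were read from lists of known function. Their counts of higher and lower KO means stand beside 11693 higher and 7812 lower among all 19505 genes. No gene of these lists was called in limma, at a smallest adjusted p of 0.223. Of 15 further TOP mRNAs, 14 were measured, 10 with a higher and 4 with a lower KO mean, at a median of 0.10. That median was 0.19 without WT 3, and -0.03 without WT 1 and WT 2, when 5 had a higher and 9 a lower KO mean. Eef1b2, a subunit of the exchange factor for elongation factor eEF1A, had the largest difference of them. It read 13.03, 13.29, 13.24 and 12.99 on KO 1 to 4, against 11.99, 11.85 and 13.05 on WT 1 to 3, a difference of 0.84 with WT 3 inside the KO range. Without WT 3 it was called, at 1.22 (limma, adjusted p = 0.000245). Rpsa and Fau, ribosomal proteins whose symbols the rule does not match, differed by 0.05 and -0.01.

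Ribosome assembly factors (45 of 48 measured) had a higher KO mean in 28 and a lower one in 17, at a median of 0.05. Without WT 3 the median was 0.11, and without WT 1 and WT 2 it was -0.03. Noc2l, a nucleolar factor of large subunit assembly, read 9.77 to 10.01 on the KO arrays, against 9.49 to 9.73 on the WT arrays, with no overlap and a difference of 0.33. Nol6, a nucleolar factor of small subunit assembly, read 10.15, 10.59, 10.55 and 10.22 on KO 1 to 4, against 11.08, 10.87 and 10.55 on WT 1 to 3, a difference of -0.46. Against WT 3 alone Noc2l differed by 0.18 and Nol6 by -0.17. Sdad1, another assembly factor, read 11.03, 11.04, 11.17 and 10.99 on KO 1 to 4, against 10.33, 9.57 and 11.00 on WT 1 to 3. Its difference was 0.76 over all arrays, 1.11 without WT 3 and 0.06 without WT 1 and WT 2, and WT 3 lay within the KO range. Relative to the KO mean the list lay at -0.16, -0.09 and 0.02 on WT 1 to 3.

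Genes of RNA polymerase I and its factors, which make the large ribosomal RNAs, had a higher KO mean in 9 and a lower one in 5 of 14 measured, at a median of 0.04. The median was 0.07 without WT 3 and 0.01 without WT 1 and WT 2. Polr1e and Twistnb, both subunits of the enzyme, differed by 0.73 and 0.50, and Taf1a, of the promoter selectivity factor, by 0.43. Against WT 3 alone the 3 differed by -0.04, -0.00 and 0.02. WT 1 and WT 2 were lowest in all 3, and without WT 3 all 3 were called (limma, adjusted p of 0.00263 for Twistnb, 0.01 for Polr1e and 0.0192 for Taf1a). Initiation factors, which bring mRNA to the small subunit, had a higher KO mean in 9 and a lower one in 11 of 20 measured, at a median of -0.03, which was -0.01 without WT 3 and 0.02 without WT 1 and WT 2. Eif4g2, a relative of the scaffold eIF4G, read 10.04, 10.30, 10.19 and 10.04 on KO 1 to 4, against 11.14, 11.56 and 10.37 on WT 1 to 3, with no overlap and a difference of -0.88. Without WT 3 it was called, at -1.21 (limma, adjusted p = 0.000504). Against WT 3 alone Eif4g2 differed by -0.23.

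The lists of regulators had medians below 0 over all arrays and above 0 against WT 3 alone. Of 13 measured genes of mTORC1, LARP1 and other control of TOP mRNA translation, 5 had a higher and 8 a lower KO mean, at a median of -0.13. The median was -0.23 without WT 3 and 0.06 without WT 1 and WT 2, when 7 had a higher and 6 a lower KO mean. Eif4e, the cap-binding protein, read 9.87, 10.01, 10.02 and 10.07 on KO 1 to 4, against 10.19, 10.52 and 10.31 on WT 1 to 3, with no overlap and a difference of -0.35. Unlike the list median, its difference kept its direction, at -0.36 without WT 3 and -0.32 against WT 3 alone. Tsc1 and Tbc1d7, both of the complex that restrains mTORC1, differed by -0.32 and -0.69, and against WT 3 alone by -0.08 and -0.13. Tsc1 read 9.40, 9.48, 9.69 and 9.77 on KO 1 to 4, against 9.90, 10.16 and 9.66 on WT 1 to 3, so that WT 3 lay within the KO range. Of 8 MYC network genes, 3 had a higher and 5 a lower KO mean, at a median of -0.22. This too turned without WT 1 and WT 2, to 0.06, and was -0.33 without WT 3. Mxd1 and Mxi1, which oppose MYC, differed by -0.65 and -0.61, and Mycl, the MYC family gene known from dendritic cells, by 1.11. Against WT 3 alone these 3 differed by -0.43, -0.10 and 0.18. Mycl read 9.63 on WT 2 and 11.88 to 12.38 on the other 6 arrays. Without WT 3, Mxd1, Mxi1, Mycl and Tbc1d7 were called as well, in the same directions, and so were the assembly factors Noc2l, Nol6 and Sdad1 (limma).

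**Figure D5:**
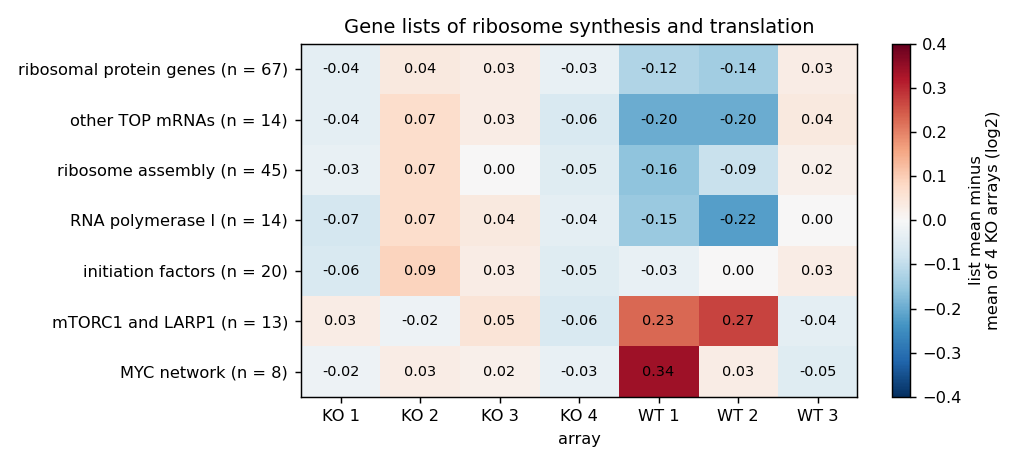
Mean of each gene list on each array minus its mean over the 4 KO arrays, in log2, with the value printed in each cell and the number of measured genes beside the list. The ribosomal protein, other TOP mRNA, ribosome assembly and RNA polymerase I lists are lowest on WT 1 and WT 2, where the mTORC1 and LARP1 list is highest.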

How the data were processed

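RNA of sorted splenic cDC1 was measured on 4 KO and 3 WT whole-transcript arrays, grouped by sample title. The authors deposited 1 table of 28846 probe sets of log2 values, and the submitters' processing notes name RMA and Affymetrix Expression Console 1.1. Of the genome build, nothing is given in the sources used here. RMA sets the probe signals of arrays processed together to 1 distribution, so a shift shared by nearly all genes would not appear. The deposited gene values still differed somewhat in level between arrays. Their median over the named genes was 8.23 on WT 1 and 8.22 on WT 2, against 8.12 to 8.14 on the KO arrays and 8.13 on WT 3. Precision is limited by how few arrays there are. The values ran from 3.68 to 14.28. Of 22206 transcript probe sets, 19572 had 1 gene symbol, 0 had several and 2634 had none listed; control probe sets (6640) were left out. Probe sets that shared a symbol were reduced to the brightest, giving 19505 genes. All 7 columns were matched to samples.

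A two-sided limma test (lmFit, then eBayes; limma 3.58.1, R 4.3.3) without covariates set KO against WT, with Benjamini-Hochberg adjustment over all genes. The fit was tested on simulated data. The members, gene lists and tests were chosen with earlier results of these data known, so no p is given for the members as a set. Rpl32l, Rpl37rt and Rps23rg1 matched the rule for members but were in no list of paralogs. Members were named as the 10 with the smallest unadjusted p in each direction, the stalk, paralogs, matched symbols that are not ribosome components, and the 3 brightest and 3 dimmest; other genes were named as up to 3 of each list by unadjusted p, Opa1 and 2 of the markers of each of 2 cell types. Rpl5, Rpl6, Rpl21, Rpl39 and Rps6 were chosen after their values were seen. The replicate numbers were not treated as pairs: deviations from the group means of same-numbered arrays correlated at -0.038, 0.046 and -0.017. Alternatives were leaving out arrays, the replicate block, quantile normalization, median centring, array weights, trended and robust variance, a filter on dim probe sets, every probe set, and members without paralogs or with Rpsa and Fau. Medians of the other gene lists without WT 3, and without WT 1 and WT 2, were added after seeing the data.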

Additional observations from a re-analysis of the deposited data

Results flagged for a closer look

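Among the values of the named genes and the subunit means, 63 sets of 4 KO arrays were examined for 1 array far from the others, and 2 were found; chance alone gives about 1 in 20. For Rpl22l1, the paralog of Rpl22, KO 1 read 11.50, against 11.70, 11.70 and 11.73 on KO 2 to 4. Its gap to the nearest array was 0.873 of the range of the group. For the mean of the large minus the mean of the small subunit, KO 2 was lowest at -0.11, and the other 3 KO arrays lay at -0.07. Its gap was 0.845 of the range. WT, with 3 arrays, was not examined.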

How the results depend on the processing

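The differences of 37 named members and 22 other genes, the medians and the counts of calls were computed under each alternative. The large minus small subunit difference between KO and WT stayed between -0.024 and 0.005 when single arrays were left out. Leave-one-out ranges were 0 to 2230 for all genes called higher and 0 to 2701 for those called lower, 0 to 9 for members called higher and 0 to 1 for members called lower, 0 to 19 for members at an unadjusted p under 0.05 and higher, and 0 to 1 for those lower; the calls all came from leaving out WT 3. Medians ranged from 0.04 to 0.10 for all members, 0.02 to 0.09 for the large and 0.05 to 0.13 for the small subunit.

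With array weights, where WT 3 had the lowest weight (0.241), 2005 genes were called higher and 2453 lower, with 8 members higher and 1 lower; 15 members were higher at an unadjusted p under 0.05, and the large subunit median was 0.11. Rpl39 (0.17), Rpl39l (0.37), Rpl3l (-0.08), Rpl7l1 (0.09) and Rps14 (0.01) changed sign. Median centring gave medians of 0.13, 0.12 and 0.14 for all, large and small members, with Rpl10l (0.04), Rpl28 (0.05), Rpl29 (0.02), Rpl36 (0.02), Rpl39 (0.05), Rpl39l (0.05), Rpl7l1 (0.05), Rps14 (0.02) and Fau (0.04) turned. With quantile normalization 6 members, and with the filter on dim probe sets 1, were higher at an unadjusted p under 0.05; Rpl10l (0.07), Rpl39 (0.06), Rpl41 (-0.00), Rpl7l1 (0.06) and Fau (0.01) turned with the first. With the replicate block 0 members were higher and 0 lower at an unadjusted p under 0.05, and Rpl39 (0.11), Rpl39l (0.13), Rpl7l1 (0.01) and Fau (0.00) turned; the arrays share only a number. Without WT 1 and WT 2 the counts were 0 and 0, the medians -0.02, -0.01 and -0.03, and Rpl10a (0.02), Rpl10l (0.03), Rpl17 (-0.01), Rpl21 (-0.26), Rpl22l1 (-0.12), Rpl28 (0.04), Rpl36 (0.01), Rpl36al (-0.09), Rpl41 (-0.07), Rpl5 (-0.12), Rplp1 (-0.02), Rps19 (0.03), Rps21 (-0.05), Rps28 (-0.01), Rps4l (-0.13), Rps6 (-0.05), Fau (0.03), Eif4b (-0.03), Nap1l1 (-0.11), Twistnb (-0.00), Polr1e (-0.04), Eif5b (-0.27) and Xcr1 (-0.01) turned.

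Leaving out single arrays turned 11 genes, whose ranges were -0.07 to 0.07 for Rpl7l1, -0.28 to 0.16 for Rpl39l, -0.15 to 0.11 for Rpl39, -0.03 to 0.29 for Rpl21, -0.04 to 0.02 for Fau, -0.05 to 0.11 for Rps19bp1, -0.07 to 0.06 for Rpl10l, -0.04 to 0.00 for Rpl28, -0.06 to 0.06 for Rpl41, -0.14 to 0.02 for Rps19 and -0.00 to 0.18 for Rpl3l. Without WT 1 and WT 2, in a choice made after seeing the data, the medians of the 5S ribonucleoprotein, exit tunnel, mRNA channel and paralog lists were -0.04, -0.01, -0.04 and -0.09, against 0.44, 0.08, 0.13 and 0.15 without WT 3. The cause of these changes was not tested. Rpl39l lay at background, which limits any difference there.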
